A study of Mus musculus with 4 samples.

Results

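The genes described here encode the initiation factors that start protein synthesis, the elongation factors that carry it on, and the proteins that bind or modify them. Members were chosen by symbol alone: names beginning with Eif1 to Eif6 or with Eef1 or Eef2, without the Eif2ak kinases, symbols marked -ps, and Eif2s3x, Eif2s3y and Eif1ax. The rule found 61 of the 50600 genes listed, and no measured value entered it. One of them, Eif2c5, is a lincRNA gene matched through its name, since Eif2c is the older name of the Argonaute genes. The gene for the gamma subunit of eIF2 is therefore not among them.

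The data are RNA-seq libraries of T cells taken as primary cells from C57BL/6NJ mice, with no transgene and no treatment named in the labels. All 4 libraries are biological replicates of that single group, and 1 donor identifier is shared by them all in the labels. Every p-value below therefore refers only to the spread among these libraries, which may be technical. The sex of the animals was not collected and their age is given as unknown. Alignment names in the headers also read Th0, 48 h and activated, none of which the labels state, and a linked protocol is named for the differentiation of CD4+ T cells.

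In initiation, the eIF4 factors bind the cap of an mRNA and unwind its leader, eIF3 holds the small ribosomal subunit, eIF2 brings the initiator tRNA, eIF1 and eIF1A guard the choice of start codon, and eIF2B recharges eIF2 with GTP. In elongation, eEF1A delivers aminoacyl-tRNA, the eEF1B complex recharges eEF1A, eEF2 moves the ribosome by a codon, and eIF5A relieves stalled ribosomes. T cells raise protein synthesis when they are activated, and the mRNAs of many of these factors are known for pyrimidine-rich first bases through which their translation follows mTOR.

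Counts assigned to genes totalled 56904311, 45110199, 127755788 and 53379135 in replicates 1 to 4. A gene without a count could lie as high as 0.0527, 0.0665, 0.0235 and 0.0562 CPM (counts relative to the library's total) in them if 3 counts are taken as the limit, and such limits cover counting error only. No pair of libraries agreed within sampling noise (chi-square per degree of freedom 9.02 to 28.7). Each was counted as 1 sample, but the chi-square cannot tell separate animals from separate preparations of the same RNA. All 9 T cell markers, Cd4 among them, lay above 1 CPM in limma's test. Of the markers of other cells, 0 of 5 for B cells, 0 of 3 for NK cells, 0 of 3 for dendritic cells, 0 of 4 for erythroid cells and 1 of 6 for myeloid cells did so. The summed B cell markers reached 1.72 to 3.21 CPM, the myeloid exception was Adgre1 at 2.60 CPM ± 0.332, and Lyz2 had no count. Of the 2 CD8 T cell markers, Cd8b1 lay above 1 CPM, at 9.62 CPM ± 0.749, and Cd8a below it, at 0.279 CPM ± 0.143. In such bulk libraries, fewer cells that use a gene and less of its RNA per cell cannot be told apart.

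Translation factor genes were expressed almost without exception. Of the 61 members, 58 had a count in at least 1 library, and 56 lay above 1 CPM by limma's one-sided test on log2(CPM + 0.1), adjusted over all 23365 genes with a count, of which 47.4% did so. Another 2, Eif4ebp3 and Eef1akmt3, lay below 1 CPM, as did 48.3% of all genes with a count. The 3 members without a count in any library were Eef1a2, Eif4e1b and Eif2c5.

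Together the members held a few percent of the messages measured. Their summed TPM (counts per exon length, scaled to the same total in each library) was 34080, 33613, 33536 and 33167 in replicates 1 to 4, a mean of 33599 ± 375 (SD, n = 4). That was 3.36% of all TPM and 3.11% ± 0.0277 of the counts. Of the 56 members above 1 CPM, 51 exceeded the median of the 11081 genes above that level, 32.4 TPM, 32 exceeded its 90th percentile, 178 TPM, and 5 its 99th percentile, 886 TPM. The members' own median was 194 TPM.

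The sum was shared very unequally between the roles. The 6 core elongation genes held 48.3% of it, at 16211 TPM ± 201, the 14 eIF3 genes 19.8%, at 6641 TPM ± 84.6, and the 12 cap-binding and helicase genes 11.8%, at 3969 TPM ± 28.1. The eIF5A genes held 8.14%, the 10 genes of start codon selection and the ternary complex 6.33%, the 5 eIF2B genes 1.81%, and the 6 accessory and modifying genes of elongation 1.68%. The cap inhibitors with their transporter gene held 1.33% and Eif6 0.891%. Eef1a1, Eef2, Eif5a and Eef1g alone made up 52.7% of the members' TPM.

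**Figure D1:**
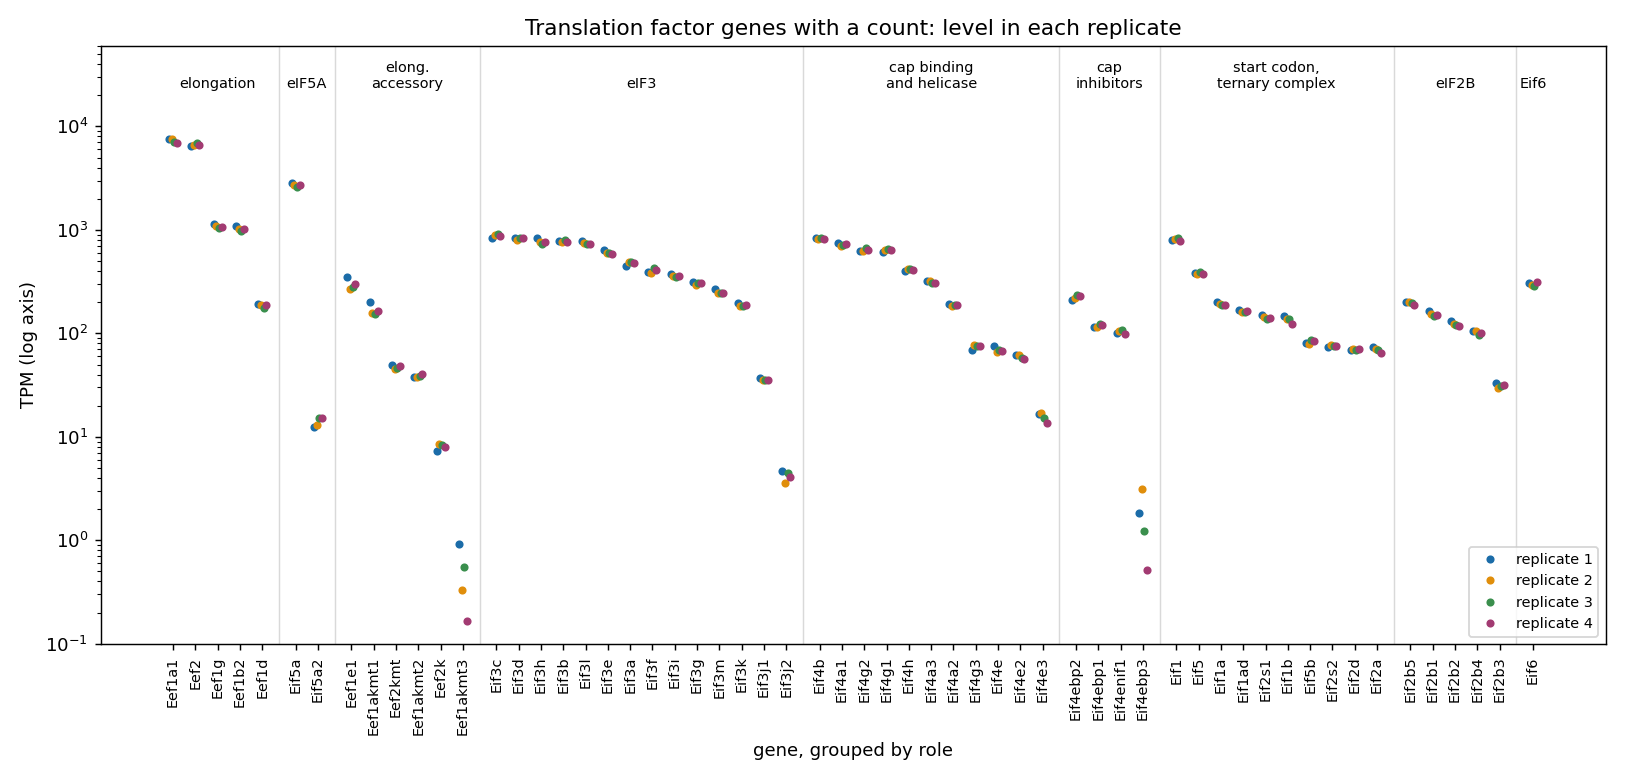
The level of each of the 58 members with a count, in TPM on a log axis, is plotted by role, with 1 point per replicate. Most genes show 4 nearly coincident points, Eef1a1, Eef2 and Eif5a stand highest, and the points spread apart for Eif4ebp3 and Eef1akmt3, the members below 1 CPM.

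The first bases of the genes were read to see which messages carry the pyrimidine tract that many translation factor mRNAs are known for. RefSeq start windows (GRCm38.p6, 10 bases before to 20 from the annotated start) were matched for 45 members, and the tract was a C followed by at least 4 bases that are each C or T, on the gene's own strand only, with overlapping matches merged into the longest run. The annotated start base was itself a C with at least 4 such bases after it, whatever came before, in 2 of the 45, Eif3f and Eif2c5, or 4.44%, against 3.01% of all RefSeq genes. Somewhere in the window it occurred in 17 of the 45, or 37.8%, against 39.6% of all RefSeq genes. Both shares are near the background and are no result about the members. No entry was matched for Eef1akmt1, Eef1akmt3, Eef1d, Eef1g, Eif1a, Eif2b3, Eif3e, Eif3h, Eif3i, Eif3j2, Eif4e1b, Eif4e3, Eif4ebp1, Eif4ebp3, Eif4g2 and Eif6. The windows of 4 abundant members, chosen after the matches were seen, show how the longest tract (capitals) lies relative to the annotated start, which is base 11 of each line. They are Eif3f at chr7:108934405-108934434 (+), Eef1a1 at chr9:78481705-78481734 (-), Eef2 at chr10:81176621-81176650 (+) and Eif3l at chr15:79075213-79075242 (+).
Eif3f: tctaggCTCTCTCTCTTTCTCggcaagatg
Eef1a1: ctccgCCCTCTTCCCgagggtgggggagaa
Eef2: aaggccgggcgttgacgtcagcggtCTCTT
Eif3l: gagttcttcttccgCTCTCTCCCacgggct
In Eif3f and Eef1a1 the longest tract runs across the annotated start, and in Eef2 and Eif3l it begins downstream of it. Eif3l also has a shorter run, left in small letters, that meets the same rule and crosses the annotated start. The longest tracts have 15 bases in Eif3f, 10 in Eef1a1 and 9 in Eif3l. That of Eef2 shows 5 bases up to the end of the window, which may not be its end. A match describes letters in the window and is not evidence of the base at which transcription began.

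Relations between members were read within each library, as the difference of log2(TPM + 0.1) between a first and a second gene. The 38 pairs joined paralogs, partners of a complex, or a factor and its regulator. Each difference was tested by limma (treat) for being more than 2-fold, with p adjusted over all genes fitted against the same second gene. Of the 37 pairs with counts for both genes, 16 passed, 11 because the first gene was higher and 5 because the second was. Over all genes against the same second genes, the share past 2-fold in either direction was 89.1%. Against Eif3a, 96.6% of all genes were more than 2-fold lower and 0.394% more than 2-fold higher. Against Eif2b5 these shares were 89.9% and 1.57%. A pass with the second gene higher is therefore nothing unusual against these genes. For the second genes of the 11 pairs with the first gene higher, and for Eef1d below Eef1g, the share was not split by direction. The 89.1% is therefore no background for those pairs, and whether their calls are unusual among all genes was not tested. The pairs that did not pass are the closer ones. In 36 of the 37, the order of the genes was the same in all 4 libraries, and the exact two-sided sign-flip test cannot go below p = 0.13 with 4 libraries. TPM depends on the exon length recorded in the files, which counts every annotated exon. In 20 members it was over 1.5 times the length of a single main transcript, so each pair was also computed with the transcript length.

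Eef1a1 and Eef2 had the highest mRNA levels of the elongation genes, and of the eEF1A genes only the ubiquitous one had counts. Eef1a1 (ENSMUSG00000037742.14, chr9:78478449-78489151, mm10) had 7491, 7518, 7129 and 6969 TPM in replicates 1 to 4, rank 4 of all genes. Eef1a2, the eEF1A gene known from muscle and neurons (chr2:181147653-181157014), had no count in any library. Eef1a1 was therefore at least 68860.3-fold higher in each of the 4 libraries, against the level of 3 counts of Eef1a2 in that library. Eef2 (ENSMUSG00000034994.10, chr10:81176631-81182498), the translocase gene, had 6426, 6548, 6891 and 6684 TPM, rank 6. The mean of Eef1a1 was 7276 TPM ± 271 against 6637 TPM ± 199 for Eef2, a difference of 0.13 ± 0.09 on the log2 scale that was not past 2-fold (limma adjusted p = 1). Eef1a1 was higher in 4 of 4 libraries per length, while per CPM, without length, the order turned round.

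The subunit mRNAs of the exchange factor that recharges eEF1A were far less abundant than that of Eef1a1, and they were unequal. Eef1g, the structural subunit gene, had 1131, 1097, 1045 and 1071 TPM, a mean of 1086 ± 37.0. Eef1b2, a nucleotide exchange subunit, had 1089, 1019, 974 and 1017 TPM, and lay next to Eef1g at a log2 difference of -0.08 ± 0.02 (limma adjusted p = 1). Eef1d, the other exchange subunit, had 194, 189, 175 and 187 TPM. Eef1d stood 2.54 below Eef1g on the log2 scale, as a difference of -2.54 ± 0.03, past 2-fold (limma adjusted p = 4.36e-10), and Eef1a1 stood above Eef1g by 2.74 ± 0.04 (limma adjusted p = 4.31e-08). Exon models matter for Eef1d, whose exon length was 2.08 times that of its main transcript, and its difference from Eef1g became -1.97 ± 0.03 with transcript lengths.

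Genes that modify the elongation factors ranged from 169 TPM for Eef1akmt1 to under 1 TPM for Eef1akmt3. Eef2k, the kinase that inhibits eEF2, had 7.25, 8.55, 8.37 and 8.07 TPM in replicates 1 to 4. The log2 difference of Eef2 over Eef2k was 9.67 ± 0.08, an 815-fold ratio (limma adjusted p = 1.29e-08). Among the methyltransferase genes, Eef2kmt, which acts on eEF2, averaged 47.4 TPM ± 1.92, and Eef1akmt1 and Eef1akmt2, which act on eEF1A, averaged 169 TPM ± 21.0 and 38.9 TPM ± 1.25. Eef1akmt3, a further eEF1A methyltransferase gene, had 42, 12, 55 and 7 counts, or 0.738, 0.266, 0.431 and 0.131 CPM. It lay below 1 CPM in every library (limma adjusted p = 0.00225). Eef1e1 (ENSMUSG00000001707.7, chr13:38645698-38659028) encodes a component of the multi-tRNA synthetase complex and averaged 300 TPM ± 36.8.

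Of the eIF5A genes, the common one was among the highest of all genes and its paralog among the lower members. Eif5a (ENSMUSG00000078812.10, chr11:69916714-69921958) had 2858, 2717, 2603 and 2704 TPM, rank 18 of all genes. Eif5a2 (ENSMUSG00000050192.8, chr3:28781276-28798846) had 12.4, 12.99, 15.2 and 15.1 TPM. The log2 difference was 7.61 ± 0.19, a 195-fold ratio (limma adjusted p = 3.48e-09), and Eif5a was higher in 4 of 4 libraries.

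Both eIF5A genes encode the lysine that is converted to hypusine, the amino acid on which the factor depends. The coding sequence around it is shown because reads from this stretch tell the paralogs apart by few bases. Codons 46 to 54 of the coding strand were read from GENCODE M21 transcripts of 154 codons (Eif5a) and 153 codons (Eif5a2), with the lysine codon, codon 50, in capitals.
Eif5a: tcgaagactggcAAGcatggccatgcc
Eif5a2: tccaagactgggAAGcatggtcatgcc
The sequences are equal at 24 of 27 bases. Neither gene had another gene at 95% identity or more over 50% of its transcript. The coding sequence fills less than 50% of either transcript, so that search cannot exclude reads shared within it. Identity over the whole coding sequence was not measured. The enzymes that make hypusine were expressed too: Dhps, which starts the conversion, averaged 92.8 TPM ± 5.61, and Dohh, which completes it, 101.1 TPM ± 2.40. All 9 genes of the list of hypusine and diphthamide enzymes, diphthamide being the modified histidine of eEF2, lay above 1 CPM, with a median of 37.9 TPM.

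Among the genes of eIF3, the largest initiation factor, most were not called past 2-fold in either direction. Against its scaffold gene Eif3a, 0 of the 13 other eIF3 genes were more than 2-fold higher, a call made for 0.394% of all genes. Another 3, Eif3j1, Eif3j2 and Eif3k, were more than 2-fold lower, a call made for 96.6% of all genes (limma, adjusted over 23364 genes). The other 10 passed neither test, and ranged from 251 TPM for Eif3m to 876 TPM for Eif3c. Eif3a (ENSMUSG00000024991.7, chr19:60761116-60790693) had 447, 492, 486 and 484 TPM in replicates 1 to 4.

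Within the core of PCI and MPN domain subunits, to which Eif3a belongs, Eif3c stood highest with 843, 888, 908 and 865 TPM. Eif3h had 844, 770, 738 and 766 TPM, Eif3l 777, 742, 739 and 725 TPM, and Eif3e 635, 604, 597 and 583 TPM. Their log2 differences from Eif3a were 0.88 ± 0.04, 0.71 ± 0.14, 0.64 ± 0.10 and 0.34 ± 0.11, each positive in 4 of 4 libraries, although per CPM those of Eif3h, Eif3l and Eif3e were negative. Below Eif3a stood Eif3f with 390, 387, 431 and 410 TPM, Eif3m with 266, 247, 245 and 246 TPM, and Eif3k with 199, 184, 185 and 188 TPM. Their differences were -0.24 ± 0.08, -0.93 ± 0.12 and -1.34 ± 0.11, and of these that of Eif3k passed (limma adjusted p = 0.000213), although with transcript lengths those of Eif3m and Eif3k were positive. No library put any of these genes on the other side of Eif3a.

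The genes of the peripheral subunits followed the same pattern, apart from those of eIF3j. Eif3b, whose product binds the ribosome with those of Eif3g and Eif3i, had 776, 765, 807 and 767 TPM. Eif3d, whose product can bind the cap, had 841, 807, 829 and 832 TPM. Both lay above Eif3a, by 0.71 ± 0.07 and 0.79 ± 0.08 on the log2 scale, although per CPM Eif3d lay below it. Eif3i had 377, 358, 352 and 356 TPM and Eif3g 314, 296, 305 and 307 TPM, with differences from Eif3a of -0.40 ± 0.11 and -0.64 ± 0.09 that turned positive with transcript lengths. None of these 4 passed the 2-fold test.

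The genes of the loosely bound subunit eIF3j were the exception. Eif3j1 had 37.1, 35.7, 35.5 and 35.3 TPM and lay below Eif3a by a log2 difference of -3.73 ± 0.09 (limma adjusted p = 1.96e-09). Its near-identical copy Eif3j2, with 99.4% identity, had 184, 112, 395 and 152 counts, or 4.63, 3.57, 4.52 and 4.10 TPM. Eif3j1 stood above Eif3j2 by 3.07 ± 0.15 (limma adjusted p = 1.57e-09), but reads shared by these copies could be split between them or left out in counting. The levels of both genes, and their differences from Eif3a, are therefore uncertain.

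Of the eIF3 genes, Eif3k and Eif3i moved most with the length used, and Eif3m and Eif3g also changed side of Eif3a. The exon length in the files was 3.49 times that of the main transcript for Eif3k and 3.30 times for Eif3i, against 1.01 times for Eif3a. With transcript lengths, Eif3k moved to 446 TPM ± 13.96 and Eif3i to 804 TPM ± 21.9, against 326 TPM ± 15.1 for Eif3a. The difference of Eif3k became 0.45 ± 0.11 and no longer passed. That of Eif3i became 1.30 ± 0.11 and passed upward (limma adjusted p = 0.000797, 0.000797 to 1 over its alternatives), while the calls for Eif3j1 and Eif3j2 held.

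**Figure D2:**
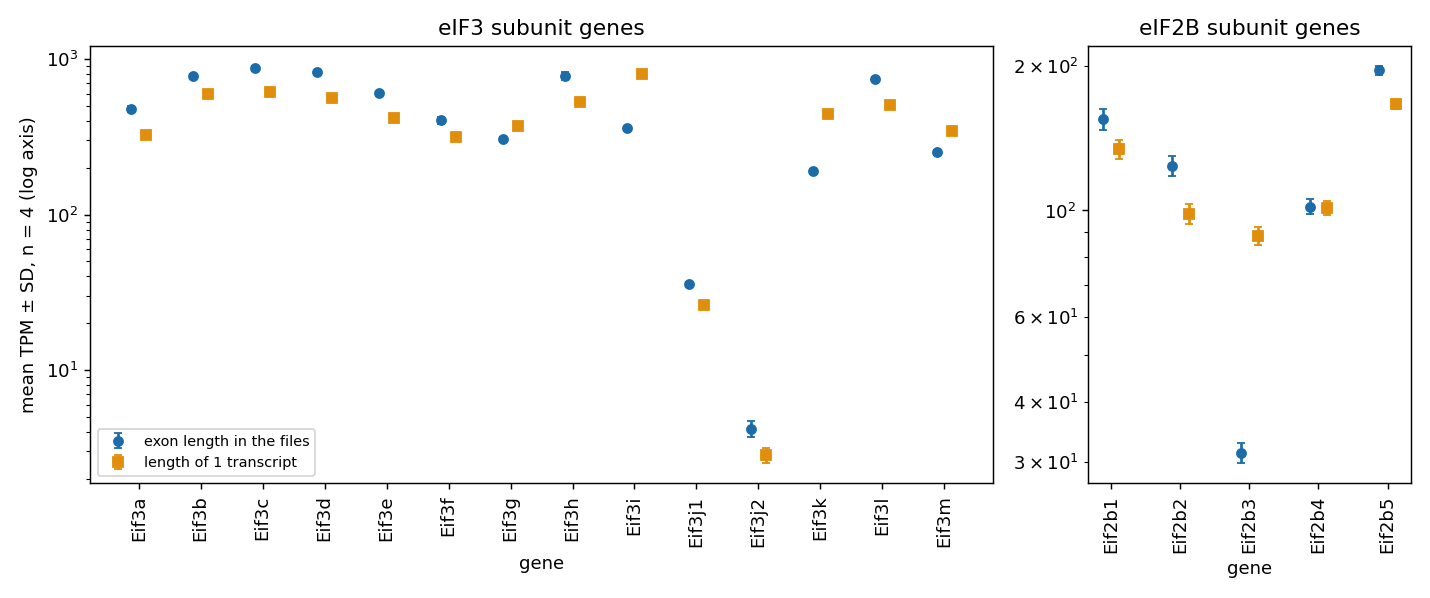
Mean TPM ± SD (n = 4, log axis) of the 14 eIF3 genes and the 5 eIF2B genes, with the exon length in the files (circles) and the length of a single transcript (squares). Eif3j1 and Eif3j2 stand low by either length, while Eif3i, Eif3k and Eif2b3 move up with the transcript length.

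The cap-binding and helicase genes were uneven, with the cap-binding protein gene itself near the bottom. Eif4e (chr3:138526179-138559696), which encodes the cap-binding subunit of eIF4F, had 75.4, 65.6, 68.5 and 67.0 TPM. Eif4e2, whose product binds caps without joining eIF4G, had 62.3, 61.4, 57.8 and 56.7 TPM, and Eif4e3, a further family member, had 16.8, 17.0, 15.2 and 13.6 TPM. Eif4e lay above Eif4e3 by 2.14 ± 0.14 on the log2 scale (limma adjusted p = 3.95e-08). Of the exon bases of Eif4e3, 14.8% are also exon of another gene on the same strand, so its level is uncertain to that extent. Its difference from Eif4e2, 0.21 ± 0.08, did not pass and turned negative with transcript lengths, at -0.90 ± 0.08, and per CPM. Eif4e1b, a family member known from oocytes, had no count.

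Among the scaffold genes, Eif4g1 and Eif4g2 had nearly equal measured levels. Eif4g1 had 618, 636, 653 and 643 TPM, and Eif4g2, whose product lacks the part that binds eIF4E, had 630, 632, 665 and 645 TPM. Their log2 difference, Eif4g2 over Eif4g1, was 0.01 ± 0.02, positive in 3 of 4 libraries, the only pair with a mixed order. Eif4g3 had 69.0, 76.6, 76.2 and 76.0 TPM, and Eif4g1 lay above it by 3.10 ± 0.05 (limma adjusted p = 2.66e-08).

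Of the eIF4A helicase genes, Eif4a1 led. Eif4a1 (ENSMUSG00000059796.16, chr11:69666936-69672423) had 750, 700, 720 and 737 TPM. Its paralog Eif4a2 had 194, 185, 189 and 186 TPM, and Eif4a3, the helicase of the exon junction complex, 319, 320, 309 and 310 TPM. Eif4a1 lay above Eif4a2 by 1.95 ± 0.03 (limma adjusted p = 4.34e-08) and above Eif4a3 by 1.21 ± 0.05 (limma adjusted p = 0.000339). The exon length of Eif4a2 was 4.35 times that of its transcript, and with transcript lengths the first difference shrank to 1.12 ± 0.03 (limma adjusted p = 0.00385, the highest over its alternatives). Eif4a1 has a pseudogene copy of 99.9% identity, Eif4a-ps4. Eif4a1 had 54276, 40009, 114792 and 49755 counts, against 3782 in all over the 4 libraries for the 3 copies found. Near-identical copies were likewise found for Eef1a1 (7 genes, 5391 counts in all) and Eef1g (3 genes, 3839 counts). Those of Eif3e, Eif3h, Eif3m, Eif4a3, Eif4e1b and Eif4ebp3 had 0 to 189 counts, and the level of each of these members is uncertain by the reads that such copies could take.

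The helicase cofactor genes were abundant. Eif4b had 836, 820, 835 and 823 TPM, a coefficient of variation of 0.984% and the smallest of all members. Eif4h had 398, 422, 415 and 410 TPM. The log2 difference of Eif4b over Eif4h was 1.01 ± 0.05, too close to 2-fold to pass (limma adjusted p = 0.398), and -0.01 ± 0.05 with transcript lengths. Larp1, Pabpc1 and the other genes of the list of cap and poly(A) partners were all above 1 CPM, 9 of 9, with a median of 153 TPM. Pabpc1, which encodes the cytoplasmic poly(A)-binding protein, averaged 1203 TPM ± 39.1, Larp1, whose product binds pyrimidine-tract mRNAs, 342 TPM ± 15.8, and Pdcd4, an inhibitor of eIF4A, 84.8 TPM ± 2.94.

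Of the inhibitors that hold eIF4E, Eif4ebp1 and Eif4ebp2 were expressed above Eif4e per length, although per CPM Eif4ebp1 lay below it. Eif4ebp2 had 210, 219, 233 and 229 TPM and Eif4ebp1 115, 115, 124 and 121 TPM, so that Eif4ebp1 lay 0.91 below Eif4ebp2, a log2 difference of -0.91 ± 0.03 that did not pass 2-fold (limma adjusted p = 1). Per CPM that difference was -2.30 and passed (limma adjusted p = 5.06e-11, and 5.06e-11 to 1 over its alternatives). Eif4ebp1 over Eif4e differed by 0.78 ± 0.11, likewise not past 2-fold, and positive in 4 of 4 libraries. Eif4enif1, the gene of the protein that carries eIF4E into the nucleus, had a mean of 103 TPM ± 4.35.

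Eif4ebp3 was the inhibitor gene with almost no reads. It had 23, 31, 34 and 6 counts, or 0.404, 0.687, 0.266 and 0.112 CPM, and lay below 1 CPM in every library (limma adjusted p = 0.00164). Per length it had 1.85, 3.16, 1.24 and 0.518 TPM, and was not called against 1 TPM. Eif4ebp1 stood above it by 6.29 ± 1.05 on the log2 scale (limma adjusted p = 6.66e-18, or 1e-04 when the spread of each gene is estimated by itself, and 2.58e-42 to 1e-04 over its alternatives). Of its 744 exon bases, 501 (67.3%) are also exon of Ankhd1 on the same strand, so its level is uncertain.

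Start codon factors were led by Eif1. Eif1 (chr11:100319885-100322096), which keeps the scanning ribosome from starting at poor codons, had 794, 824, 838 and 788 TPM. Its paralog Eif1b had 148, 138, 136 and 124 TPM, and Eif1 lay above it by 2.57 ± 0.10 (limma adjusted p = 3.24e-08). Eif5, whose product drives GTP hydrolysis on eIF2 and counters eIF1, had 383, 374, 393 and 371 TPM. Eif1 over Eif5 differed by 1.09 ± 0.04, just past 2-fold (limma adjusted p = 0.0129, and 4.23e-07 to 1 over its alternatives). It did not pass without replicate 2 (limma adjusted p = 0.0709), or per CPM, where the difference was 0.14 (limma adjusted p = 1). Eif1a averaged 192 TPM ± 5.71, Eif1ad 165 TPM ± 3.38, Eif5b, the GTPase of subunit joining, 82.6 TPM ± 3.27, Eif2d 69.9 TPM ± 0.951 and Eif2a 69.6 TPM ± 3.76.

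The eIF2 subunit genes in the set were not called more than 2-fold apart. Eif2s1, for the alpha subunit whose phosphorylation stops initiation, had 152, 144, 139 and 139 TPM, and Eif2s2, for the beta subunit, 74.7, 77.4, 74.9 and 75.9 TPM. The difference of Eif2s1 over Eif2s2 was 0.92 ± 0.07 (limma adjusted p = 1), and 0.05 ± 0.07 with transcript lengths, since the exon length of Eif2s2 was 2.66 times that of its transcript. All 7 genes of the list around eIF2 phosphorylation were above 1 CPM, with a median of 30.2 TPM. The kinase genes all lay below Eif2s1, at 50.7 TPM ± 0.293 for Eif2ak1, 21.9 TPM ± 1.64 for Eif2ak2, 24.5 TPM ± 1.75 for Eif2ak3 and 30.2 TPM ± 1.32 for Eif2ak4. Ppp1r15b, for the constitutive phosphatase cofactor, had 153 TPM ± 9.16 and Ppp1r15a, for the stress-induced one, 35.1 TPM ± 3.30.

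In eIF2B, the exchange factor that phosphorylated eIF2 blocks, the catalytic subunit gene was the highest. Eif2b5 (chr16:20498817-20509955) had 199, 199, 195 and 190 TPM. Of the 4 other genes, 0 were more than 2-fold above it, a call made for 1.57% of all genes, and 1, Eif2b3, was more than 2-fold below it, a call made for 89.9% (limma). Eif2b1 had 165, 155, 149 and 150 TPM, Eif2b2 132, 125, 122 and 118 TPM and Eif2b4 105, 104, 96.9 and 102 TPM, with differences of -0.34 ± 0.05, -0.66 ± 0.05 and -0.94 ± 0.04 from Eif2b5. Eif2b3 had 33.0, 29.5, 30.8 and 31.8 TPM and a difference of -2.64 ± 0.08 (limma adjusted p = 1.41e-08). Its exon length was 4.19 times that of its transcript, and with transcript lengths the difference was -0.91 ± 0.08 and did not pass. Eif6, whose product keeps the large ribosomal subunit from joining too early, had 305, 291, 290 and 312 TPM.

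**Figure D3:**
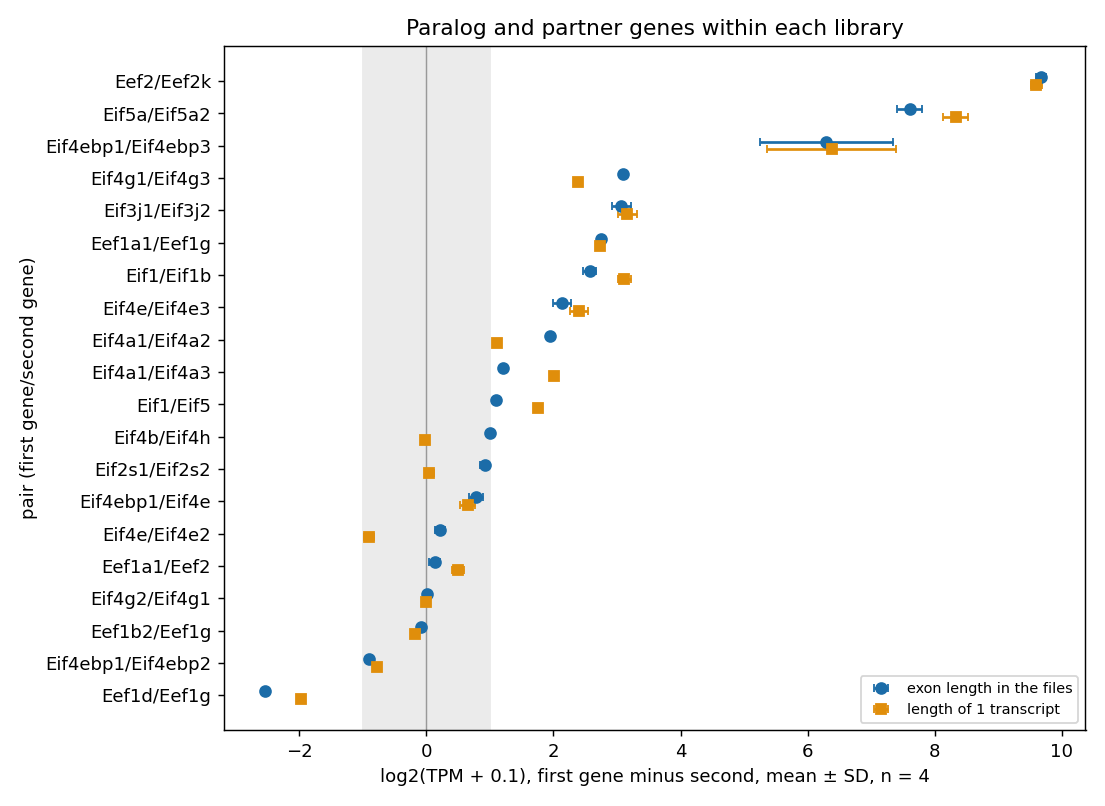
Log2 difference (first gene over second, of TPM + 0.1) for paralog and partner pairs, mean ± SD over 4 libraries, with the exon length in the files (circles) and the length of a single transcript (squares). The shaded band spans less than 2-fold, and Eif4ebp1/Eif4ebp3, at 6.29 ± 1.05, has the widest error bar.

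Genes of factors outside the set that complete the pathway were also expressed. Of the termination and recycling genes 7 of 7 lay above 1 CPM, with a median of 68.4 TPM, led by Etf1, the release factor gene, at 530 TPM ± 13.3. All 6 mitochondrial factor genes did so, with a median of 52.8 TPM and Tufm, the mitochondrial counterpart of eEF1A, at 217 TPM ± 2.03. All 3 selenocysteine genes did so, with a median of 74.7 TPM. None of the genes of these lists, or of those on modification, cap partners and eIF2 phosphorylation, varied between replicates beyond the genes of its abundance in edgeR's goodness-of-fit test described next.

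Members varied little between replicates. Over the 56 members that passed edgeR's filter on low counts, the median coefficient of variation of TPM was 3.68%, against 6.24% over all 13279 genes that passed it. These members were more abundant than most genes, and how much of the difference goes with abundance was not tested. By edgeR's goodness-of-fit test, run at the trended dispersion and adjusted over the 13279 genes, 1 member, Eef1e1, varied beyond genes of its abundance, a call made for 0.422% of all genes. It had 352, 268, 280 and 300 TPM in replicates 1 to 4 (adjusted p = 0.0324), so replicate 1 stood above the others. With 1 library left out in turn the edgeR adjusted p was 0.0502 to 1, and Eef1e1 was not called in any of the 4 fits. That p was highest without replicate 1, and was 0.199, 0.0965 and 0.0502 without replicates 2, 3 and 4. Eef1akmt1 had a similar profile, 200, 157, 155 and 165 TPM, with an unadjusted p of 0.00282 in the same edgeR test and an adjusted p of 0.30.

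Replicates 1 and 4 departed most from the share of all genes in which a library is highest. Replicate 1 was the highest of the 4 for 33 of the 58 members with a count, 56.9%, against 26.9% of all 13279 genes, and the median deviation of the 56 filtered members in it was 0.04 on the log2 scale. Replicate 4 was the highest for 2 of the 58, 3.45%, against 18.2% of all genes, and the members' median deviation in it was -0.01. Gene length moved with the deviations of replicates 1 and 3 over all genes. In replicate 1 the median deviation was 0.04 for the 2657 shortest genes and -0.03 for the 2656 longest, and in replicate 3 it was -0.04 for the shortest and 0.04 for the longest. Eef1akmt1 and Eef1e1, the filtered members highest in replicate 1 relative to their means, have 836 and 1032 exon bases and are the shortest members apart from Eif4ebp3. With genes in 5 groups by length, shortest first, the members' median deviations in replicate 1 were 0.09, 0.06, 0.01, 0.04 and -0.04. Those of all genes in the same groups were 0.04, 0.02, -0.002, -0.02 and -0.03. The groups held 9, 19, 8, 13 and 7 members. The part of length in these deviations was not tested.

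**Figure D4:**
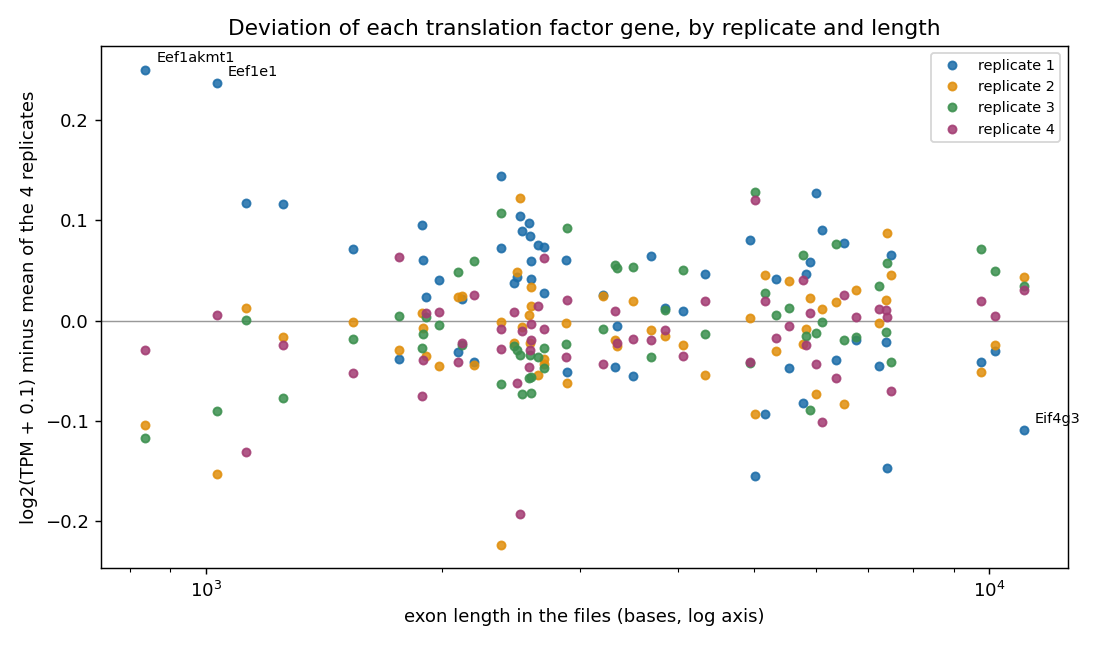
Deviation of each of the 56 filtered members from its mean over the 4 replicates, on the log2(TPM + 0.1) scale, against the exon length in the files on a log axis, with 1 point per replicate. Most points lie within 0.1 of the mean, and those of Eef1akmt1 and Eef1e1 in replicate 1 stand highest, at 0.25 and 0.24.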

How the data were processed

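The deposited values are raw gene counts of read pairs, per the file headers from featureCounts 1.4.6-p4 over GENCODE M13 exons, with both ends mapped and strand option 2. Alignments came from STAR, in a version not given in the sources used here, mm10 is the assembly per the labels, and no option for reads of several places or genes is named. The assay label reads total RNA-seq, but the library protocol it links to is named for polyA RNA. Symbols came from GENCODE M21 (50376 of 50600 genes; the other 224 held at most 0.0092% of counts).

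CPM used the library total of counts and TPM the files' exon lengths. Levels and pairs were tested with limma 3.58.1 and spread with edgeR 4.0.16 (TMM, filterByExpr), each with Benjamini-Hochberg adjustment over all genes; DESeq2 1.42.0 size factors were an alternative. In the pair test a noisy second gene lends its spread to all genes fitted against it. The alternative with both genes' own spread was added after seeing the data. Tools were R 4.3.3, python 3.11.15 and blastn 2.17.0+, and the tests were tried on simulated data. Copies were searched at 95% identity over 50% of a transcript, which 10 members had. Exon bases shared with another gene on the same strand were found in 10 members, from 1.02% in Eif4e to 67.3% in Eif4ebp3. Next to Eif4ebp3 the shares were 14.8% in Eif4e3, 9.63% in Eif4a2, 6.95% in Eef1b2 and 6.62% in Eif4a1.

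The symbol rule for the members and the lists were set with earlier results of these data known, although no measured value entered the rule. Any member could be named, and other genes only from the lists and markers. Values per library are given for pair members, members not above 1 CPM and variable members.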

Additional observations from a re-analysis of the deposited data

Results flagged for a closer look

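In 2 of the 58 members with a count, 1 library lay far from the other 3. Eif3m had 265.9 TPM in replicate 1, with the other 3 between 245 and 247 TPM, and the gap to the nearest of them was 0.902 of the whole range. Eif4g3 had 68.95 TPM in replicate 1, with the others between 76.0 and 76.6 TPM, and a gap of 0.914 of the range. Chance flags about 1 in 20 groups of 4. Here 3.45% of the members were flagged, against 5.37% of all genes by the same measure.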

How the results depend on the processing

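The count of 56 members above 1 CPM was the same in all 11 alternatives. The 2 below 1 CPM became 0 with the edgeR filter, which leaves both out, and 1 per TPM, where Eif4ebp3 lay 0.46 above 1 TPM on the log2 scale without a call. The 1 variable member became 0 with a filter of at least 1 count (adjusted p = 0.218 in edgeR), 0 with a common dispersion (adjusted p = 0.347) and 0 to 0 with each library left out. The summed TPM was 35994.5 over protein-coding genes outside the mitochondrial chromosome and 31135.3 with transcript lengths, and 33439 to 33743 with each library left out. The 16 pairs past 2-fold became 15 to 23. Per CPM, 8 eIF3 genes and 3 eIF2B genes differed more than 2-fold, and with transcript lengths 0 eIF2B genes did. Of 369 values for single pairs, 347 kept direction and call, 13 changed direction, 9 gained a call and 4 lost it. Of those with another direction, 3 also gained a call and 1 lost it. Directions changed per CPM for Eef1a1/Eef2 (-0.28), Eif4e/Eif4e2 (-0.11), Eif4ebp1/Eif4e (-0.67) and, against Eif3a, for Eif3d (-0.64), Eif3e (-1.41), Eif3h (-1.34) and Eif3l (-0.81). They changed with transcript lengths for Eif4e/Eif4e2 (-0.90), Eif4b/Eif4h (-0.015) and, against Eif3a, for Eif3g (0.19), Eif3i (1.30), Eif3k (0.45) and Eif3m (0.072). Both alternatives change gene length alone. No paired analysis was possible because the labels give 1 group. At these depths 3 counts are 0.0235 to 0.0665 CPM, so counting limits what can be said of the 3 members without a count and of Eif4ebp3 and Eef1akmt3.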
